A study of Mus musculus with 12 samples.

Results

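The HoxD cluster is a row of homeobox genes that encode DNA-binding transcription factors, with the homeobox gene Evx2 at one end. The 17 transcript rows examined here are those of the deposited table that overlap a window of chromosome 2 from just outside Evx2 to just past Hoxd1 in the mouse build mm9, out of 55418 rows in all. Transcripts that overlap on 1 strand were summed, which gave 12 of the table's 26699 loci. In order along the chromosome they are Evx2, Hoxd13, Hoxd12, Hoxd11, Hoxd10, Gm14396, Hoxd9, Hoxd8, Hoxd3os1, a joint Hoxd3-Hoxd4 locus, Gm14424 and Hoxd1. The joint locus holds the transcript rows of Hoxd3, Hoxd4, Gm28230 and the microRNA Mir10b, which overlap on the plus strand. Evx2 and Hoxd3os1, an antisense transcript, lie on the minus strand, and all the others lie on the plus strand.

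RNA was measured by sequencing in cells of newborn mouse kidney that carry an R26R-tdTomato reporter. Six2-expressing progenitors were isolated by flow cytometry, per the labels' protocols, and the titles divide them into mutant and control kidneys and into high and low expression. The groups were mutant high (n = 2), control high (n = 2), mutant low (n = 4) and control low (n = 4). The descriptions give a number that mutant high replicates 1 and 2 share with mutant low replicates 1 and 2 (5 and 7), and control high replicates 1 and 2 with control low replicates 2 and 3 (6 and 8), without saying what it marks. The signal that was high or low, the mutant and control alleles and the driver of recombination are not given in the labels, the series title names Eed, and whether samples came from separate animals is not stated, so the p-values below cover only how much these libraries vary, which may be technical. SMART-Seq cDNA was made from 10 ng of total RNA, and library totals ran from 7779040 to 9307989 fragments in mutant high, 4549011 to 6249263 in control high, 5948488 to 12317879 in mutant low and 6784907 to 12365078 in control low cells.

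As background, Hox genes of a cluster are laid out in the order in which they are used along the body axis, with Hoxd1 at the anterior and Hoxd13 at the posterior end. Polycomb repressive complexes hold Hox genes silent where they are not used. Eed is a core subunit of the complex that methylates lysine 27 of histone H3, a mark found mainly at CpG-rich promoters. In the kidney, Hoxd11 acts together with its paralogs in the mesenchyme that gives rise to nephrons, whereas Hoxd13 is best known from digits, genitalia and hindgut.

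The promoter windows of 3 genes are shown because the outermost Hox genes, Hoxd13 and Hoxd1, had more fragments in mutant than in control cells, while Hoxd12, next to Hoxd13, had at most 3 fragments in any library. Each runs from 250 bases before to 50 bases after the RefSeq start on the plus strand of GRCm38.p6, and capitals mark the dinucleotide CG, which reads the same on both strands.
Hoxd13 promoter: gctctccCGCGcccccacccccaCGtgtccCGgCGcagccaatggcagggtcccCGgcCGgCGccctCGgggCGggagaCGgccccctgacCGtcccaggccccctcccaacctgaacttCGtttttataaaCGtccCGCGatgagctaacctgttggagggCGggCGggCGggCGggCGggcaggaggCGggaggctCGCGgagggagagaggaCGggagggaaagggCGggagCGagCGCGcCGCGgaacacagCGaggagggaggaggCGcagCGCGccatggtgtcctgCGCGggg
Hoxd12 promoter: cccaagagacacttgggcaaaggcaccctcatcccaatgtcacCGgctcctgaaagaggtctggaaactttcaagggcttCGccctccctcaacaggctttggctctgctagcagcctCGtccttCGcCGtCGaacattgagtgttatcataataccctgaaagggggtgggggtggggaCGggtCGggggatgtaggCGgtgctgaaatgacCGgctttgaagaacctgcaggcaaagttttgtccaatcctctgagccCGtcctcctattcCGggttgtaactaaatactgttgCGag
Hoxd1 promoter: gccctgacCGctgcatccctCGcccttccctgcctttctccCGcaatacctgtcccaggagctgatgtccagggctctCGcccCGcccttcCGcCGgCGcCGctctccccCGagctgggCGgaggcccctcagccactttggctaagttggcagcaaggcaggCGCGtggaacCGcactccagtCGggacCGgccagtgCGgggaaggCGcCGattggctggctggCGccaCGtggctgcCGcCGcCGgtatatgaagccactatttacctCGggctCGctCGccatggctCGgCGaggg
These lie at chr2:74667975-74668274, chr2:74674763-74675062 and chr2:74762730-74763029 in GRCm38.p6, whose positions are not those of mm9. The Hoxd13 window holds 37 CG dinucleotides, and 5.58% of the 32851 promoter windows of this length in the RefSeq table hold at least as many. The Hoxd1 window holds 29 (12.9% hold at least as many) and the Hoxd12 window 13 (37.9%), while the median over all windows is 7 and 94.6% of windows hold at least 1. Among the other promoter windows of the cluster the count was 4 at Hoxd4, 6 at Hoxd8, 16 at Evx2, 20 at Hoxd9 and at Hoxd3, 22 at Hoxd10, and 4 and 25 at the pair of Hoxd11 starts. These counts describe the sequence and say nothing of binding or methylation in these cells.

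Some values of the whole libraries bear on what follows. The share of fragments on chromosome M was 4.51% and 10.3% in the control high libraries, against 0.494% to 1.96% in the other 10. Eed was at 4.73 and 7.26 CPM (the fragment count scaled to library size with TMM factors) in mutant high cells and at 8.74 and 9.07 CPM in control high cells. It was at 7.27, 11.1, 5.44 and 9.91 CPM in mutant low cells, against 14.4, 13, 15.5 and 13.4 CPM in control low cells. Eed ranges did not overlap in either pair, with log2 fold changes of -0.57 (SE 0.39, adjusted p = 0.291 in edgeR) and -0.74 (SE 0.26, adjusted p = 0.107 in edgeR). Neither passed the test, and 31.2% of all loci tested in the high pair and 6.69% in the low pair had lower ranges without overlap. The labels do not say which gene is altered in the mutant, or how, so this level does not check them. Of the other subunit genes on the Polycomb list, 2 of 4 could be matched, Suz12 and Ezh1. Suz12 was called in no comparison. Ezh1 was higher in mutant high than in control high cells (log2 fold change 0.95 with SE 0.30, adjusted p = 0.0314 in edgeR). Within control kidneys, high cells had less Ezh1 (log2 fold change -0.68 with SE 0.27, adjusted p = 0.0457 in edgeR). The mutant effect on Ezh1 differed between the populations by 1.22 (SE 0.37, adjusted p = 0.0471 in edgeR). Ezh1 was not called for mutant low against control low or mutant high against mutant low cells (edgeR adjusted p = 0.504 and 0.110). The list summed to 69.7 to 79.8 CPM in mutant high, 41.1 to 59.7 CPM in control high, 59.7 to 76.1 CPM in mutant low and 70.9 to 82.7 CPM in control low cells. Six2 itself could not be matched to a row, and the nephron progenitor markers that could, 3 of 7 (Osr1, Meox1 and Traf1), summed to 5.17 to 6.76 CPM in mutant high cells, against 1.98 to 3.12 CPM in control high, and were at 4.44 to 9.91 CPM in mutant low and 21.2 to 33.3 CPM in control low cells. Proximal tubule markers, 3 of 6 (Cubn, Slc22a6 and Miox), summed to 402 to 507 CPM in mutant high cells, against 5420 to 7230 CPM in control high, and were at 1.87 to 8.20 CPM in mutant low and 35.7 to 207 CPM in control low cells. Loop and distal tubule markers, 2 of 4, summed to 14.9 to 25.6, 78 to 148, 0 to 0.924 and 1.17 to 9.24 CPM in the same order of groups. Ureteric bud markers, 3 of 5 (Ret, Aqp2 and Krt8), summed to 646 to 970 CPM in mutant high, 940 to 1050 CPM in control high, 15.6 to 29.6 CPM in mutant low and 16.1 to 48.5 CPM in control low cells. Krt8 made up most of that sum in high cells, at 901 and 597 CPM in mutant and 920 and 796 CPM in control samples. The other two lay in opposite directions, with Ret at 10.2 and 4.43 CPM in mutant high against 0.416 and 0.284 CPM in control high cells, and Aqp2 at 58.1 and 44.9 CPM in mutant high against 134 and 144 CPM in control high cells. Stroma markers, 2 of 4, summed to 38.2 to 43.4 CPM in mutant high, 7.70 to 12.2 CPM in control high, 26.4 to 61 CPM in mutant low and 10.6 to 17.6 CPM in control low cells. Podocyte markers, 3 of 5, were at 89.2 to 272, 28.1 to 52.8, 99.8 to 213 and 34.2 to 63.1 CPM in that order, the early nephron gene Ccnd1, 1 of 6 on its list, at 73 to 374, 21.8 to 41.1, 443 to 930 and 83.7 to 234 CPM, and the blood genes Hbb-bs and Ptprc, 2 of 3, at 32 to 69, 49.5 to 85.9, 14.9 to 39.3 and 95 to 192 CPM. None of the 3 endothelial markers could be matched. In all high libraries the summed ureteric bud and proximal tubule markers exceeded the summed nephron progenitor markers, whatever the label of the sorted cells. This was not particular to high libraries. The ureteric bud sum exceeded the progenitor sum in all mutant low libraries, and the proximal tubule sum exceeded it in all control low libraries. Sums over different genes do not rank cell types. In these bulk samples fewer cells of a type and less RNA per cell cannot be told apart, and the part of these markers in the HoxD results was not tested.

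Of the 12 loci, 7 passed the filter on low counts and were tested: Hoxd13, Hoxd11, Hoxd10, Hoxd9, Hoxd8, Hoxd3-Hoxd4 and Hoxd1. Hoxd13 and Hoxd1 passed only through their levels in mutant cells, so counts over the tested loci are a description. The other 5 loci held few fragments or none. Evx2 had 1 fragment in mutant high replicate 1, 1 in mutant low replicate 4 and none in the other 10 libraries. Hoxd12, a limb patterning gene of the posterior end, had 2 and 0 fragments in mutant high, none in control high, 1, 0, 1 and 0 in mutant low, and 3, 0, 0 and 1 in control low cells. The Hoxd3os1 antisense locus had 2 and 1 fragments in mutant high, 2 and 5 in control high, 1, 1, 0 and 2 in mutant low, and 2, 2, 1 and 0 in control low cells. Gm14396 and Gm14424 had none in any library. At these totals 3 fragments over a group correspond to 0.163 CPM in mutant high, 0.360 CPM in control high, 0.0821 CPM in mutant low and 0.0803 CPM in control low cells. This is a chosen floor, and levels under it rest on too few fragments to be measured closely. Within the joint Hoxd3-Hoxd4 locus, the Hoxd3 row held 123.6 and 113 of 131 and 113 fragments in mutant high and all fragments of control high replicate 1 and 47.0 of 48 in replicate 2. The Hoxd4 row held at most 1.89 fragments in any library, the Gm28230 row at most 10.2 and Mir10b none. These values are estimated splits between overlapping rows, so the joint level is not assigned to 1 gene and only the sum was used.

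**Figure D1:**
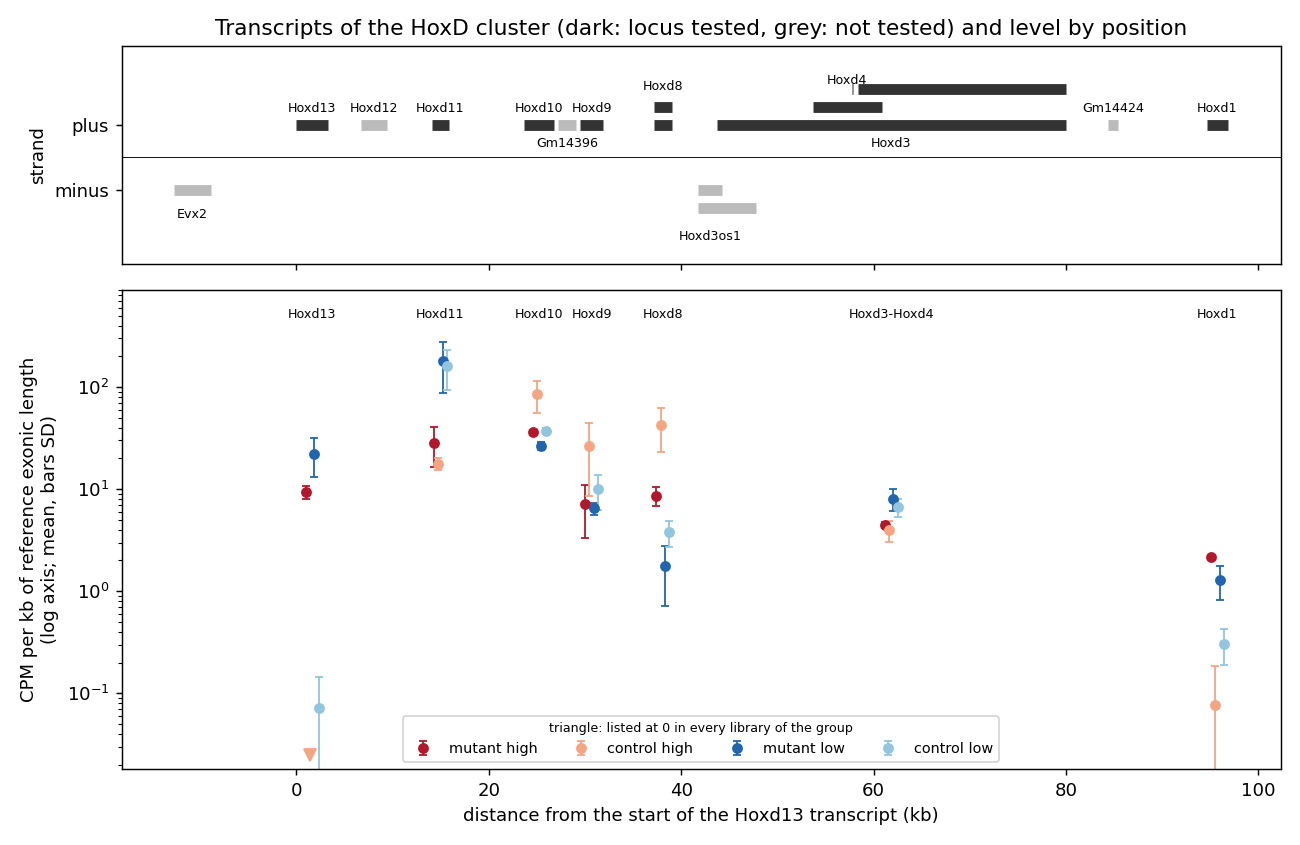
The upper panel maps the transcripts of the HoxD cluster by strand against distance in kb from the start of the Hoxd13 transcript, dark where the locus was tested. The lower panel gives the mean level per kb of reference exonic length on a log axis (bars, SD) in mutant high and control high (n = 2 each) and mutant low and control low cells (n = 4 each), and shows Hoxd11 highest in low cells and Hoxd13 near or at 0 in control cells.

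The series title names a role of Eed in nephron progenitors, and the first comparison asked how the cluster differs between mutant and control kidneys in each population. Hoxd13 and Hoxd1, the outermost Hox genes, were higher in mutant cells of both populations, while Evx2, which lies beyond Hoxd13, held too few fragments to be tested. Hoxd10, Hoxd9 and Hoxd8, in the middle, were lower in mutant than in control cells of the high population, and their lower means in mutant low cells did not pass the test. Hoxd11 and Hoxd3-Hoxd4 passed the test in neither population. In high cells 2 tested HoxD loci were called higher and 3 lower (of all loci tested, 16.3% were called higher and 11.2% lower), and in low cells 2 were called higher and none lower (4.82% and 3.21% of all loci tested). DESeq2 and limma-voom also called none lower in low cells, while Hoxd10 and Hoxd8 were lower there at an unadjusted p of 0.0194 and 0.0210 in edgeR. The median log2 fold change over the 7 loci was 0.19 in high and 0.16 in low cells, against 0.08 and -0.06 over all 13749 loci tested. Ranges without overlap were found at Hoxd13, Hoxd11 and Hoxd1 (higher) and at Hoxd10, Hoxd9 and Hoxd8 (lower) in mutant high against control high cells, where 35.9% and 31.2% of all loci tested had them. In mutant low against control low cells they were found at Hoxd13 and Hoxd1 (higher) and at Hoxd10 and Hoxd8 (lower), where 7.46% and 6.69% had them.

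Hoxd13 (uc008kdu.1, chromosome 2, 74506366 to 74509655) was at 21 and 25.5 CPM in mutant high cells while both control high libraries held 0 fragments. It was at 38.0, 39.8, 56.6 and 87.2 CPM in mutant low cells, against 0.117, 0, 0.432 and 0.164 CPM in control low cells. Every mutant library lay far above every control library. In fragments, the mutant high libraries held 217 and 207, the mutant low libraries 329, 261, 509 and 1074, and the control low libraries 1, 0, 4 and 2. Against a floor of 3 fragments over the control high group, Hoxd13 was at least 63.8-fold higher in mutant high cells (edgeR adjusted p = 0.000108). In low cells the ratio of fragments, scaled to library size, was 317 with a 95% counting interval of 154 to 790. It came from 2173 fragments in mutant low and 7 in control low cells, and the log2 fold change was 8.11 (SE 0.51, adjusted p = 7.76e-07 in edgeR). Low libraries with description numbers up to 7 gave 8.98 (edgeR adjusted p = 5.12e-05) and those above 7 gave 7.96 (edgeR adjusted p = 2.14e-06), and the value without control low replicate 3, which held 4 of the 7 control fragments, was 8.86. A fit of only the 8 libraries with a shared number gave the lowest value, 7.26 (edgeR adjusted p = 0.000969). The call was made in all 25 alternatives run for low cells and all 23 for high cells.

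Hoxd1 (uc008kei.1, 74601036 to 74603199), known in the mouse from pain-sensing neurons, is the most anterior gene of the cluster and lies 94.67 kb from the Hoxd13 start. It was at 4.15 and 3.94 CPM in mutant high cells, against 0 and 0.284 CPM in control high cells. It was at 2.66, 1.52, 1.89 and 3.49 CPM in mutant low cells, against 0.351, 0.679, 0.432 and 0.821 CPM in control low cells. The ranges did not overlap in either population, but the levels were low. The control high group held 1 fragment against 75 in mutant high cells, a ratio of 33.8 with a counting interval of 5.89 to 1350 (edgeR adjusted p = 0.00159). In low cells the log2 fold change was 2.04 (SE 0.44, adjusted p = 0.00871 in edgeR). The fitted log2 fold change in high cells moved to 3.81 without control high replicate 1 and to 8.18 without replicate 2, which held the only control fragment. The call in low cells was lost with each transcript as a feature (edgeR adjusted p = 0.123), and low libraries with description numbers up to 7 gave a log2 fold change of 2.06 with edgeR adjusted p = 0.105.

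Hoxd10, Hoxd9 and Hoxd8, known from patterning of the limb, lumbar motor neurons and vertebrae, form the middle of the tested row. Hoxd10 (74530004 to 74533159) was at 67.6 and 64.1 CPM in mutant high cells, against 118 and 193 CPM in control high cells. The log2 fold change was -1.23 (SE 0.26, adjusted p = 0.00346 in edgeR). In low cells it was at 44.0, 45.7, 50.1 and 52.9 CPM in mutant and at 62.4, 70.5, 65.6 and 70.8 CPM in control samples. These ranges did not overlap, and the fitted log2 fold change was -0.48 (SE 0.18, adjusted p = 0.138 in edgeR).

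Hoxd9 (74535819 to 74538265) was at 20.9 and 9.48 CPM in mutant high cells, against 29.3 and 83.4 CPM in control high cells, a log2 fold change of -1.88 (SE 0.51, adjusted p = 0.0135 in edgeR). The control high libraries lay far apart. In low cells Hoxd9 was at 14.9, 15.8, 11.9 and 12.8 CPM in mutant and at 32.4, 22.1, 14.7 and 15.9 CPM in control samples, which overlap, and the test gave a log2 fold change of -0.62 (SE 0.35, adjusted p = 0.354 in edgeR).

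Hoxd8 (74543545 to 74545364) was at 17.4 and 13 CPM in mutant high cells, against 50.5 and 99.5 CPM in control high cells, a log2 fold change of -2.30 (SE 0.58, adjusted p = 0.00952 in edgeR). In low cells it was at 4.16, 4.72, 0.667 and 2.76 CPM in mutant and at 6.32, 9.24, 4.86 and 6.07 CPM in control samples. All 4 mutant low libraries lay below all 4 control low libraries, with a log2 fold change of -1.12 (SE 0.43, adjusted p = 0.145 in edgeR). Its pair of transcript rows share start and end. The estimated split between them put 106 of the fragments on the first row in mutant high replicate 2, and 0.755 to 2.99 fragments on that row in every other library, so only the sum was used. The 3 calls in high cells were lost without 1 library. Without control high replicate 2, which had the highest share of chromosome M fragments, the log2 fold changes were -0.85 at Hoxd10, -0.95 at Hoxd9 and -1.74 at Hoxd8 (edgeR adjusted p = 0.0553, 0.261 and 0.107). Without mutant high replicate 1 that of Hoxd9 was -2.55. Without mutant high replicate 2, those of Hoxd9 and Hoxd8 were -1.40 and -2.08 (edgeR adjusted p = 0.142 and 0.0934). With each transcript as a feature both calls were also lost (edgeR adjusted p = 0.0751 at Hoxd9 and 0.279 at Hoxd8). At Hoxd8 that value is for the second row, which the split left with 0.203 fragments in mutant high replicate 2. It therefore says little of the locus. The summed proximal tubule and loop and distal tubule markers were also lower in mutant high than in control high cells, by the values given above. The summed nephron progenitor, stroma and podocyte markers and Ccnd1 were higher there. The part of any of these in the HoxD values was not tested.

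Hoxd11 (74520449 to 74522195), the kidney-patterning member, was at 41.2 and 22.3 CPM in mutant high cells, against 17.7 and 21.5 CPM in control high cells. The ranges were adjacent but did not overlap, and the log2 fold change was 0.70 (SE 0.57, adjusted p = 0.396 in edgeR). In low cells it was at 123, 102, 268 and 310 CPM in mutant and at 158, 94.0, 192 and 274 CPM in control samples, with a log2 fold change of 0.16 (SE 0.39, adjusted p = 0.858 in edgeR). Replicates 3 and 4 lay above replicates 1 and 2 in both low groups, which are the libraries with description numbers above 7, and the within-group spread was larger than the difference between genotypes. The Hoxd3-Hoxd4 locus (74550049 to 74586328), of the anterior part that is known from neck vertebrae, was at 12.7 and 13.9 CPM in mutant high and 9.78 and 13.6 CPM in control high cells (log2 fold change 0.19 with SE 0.35, adjusted p = 0.722 in edgeR). In low cells it was at 18.5, 19.5, 30.0 and 27.2 CPM in mutant and at 14.2, 23.0, 21 and 20.6 CPM in control samples (log2 fold change 0.28 with SE 0.24, adjusted p = 0.563 in edgeR). Both of its pairs of groups overlapped.

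**Figure D2:**
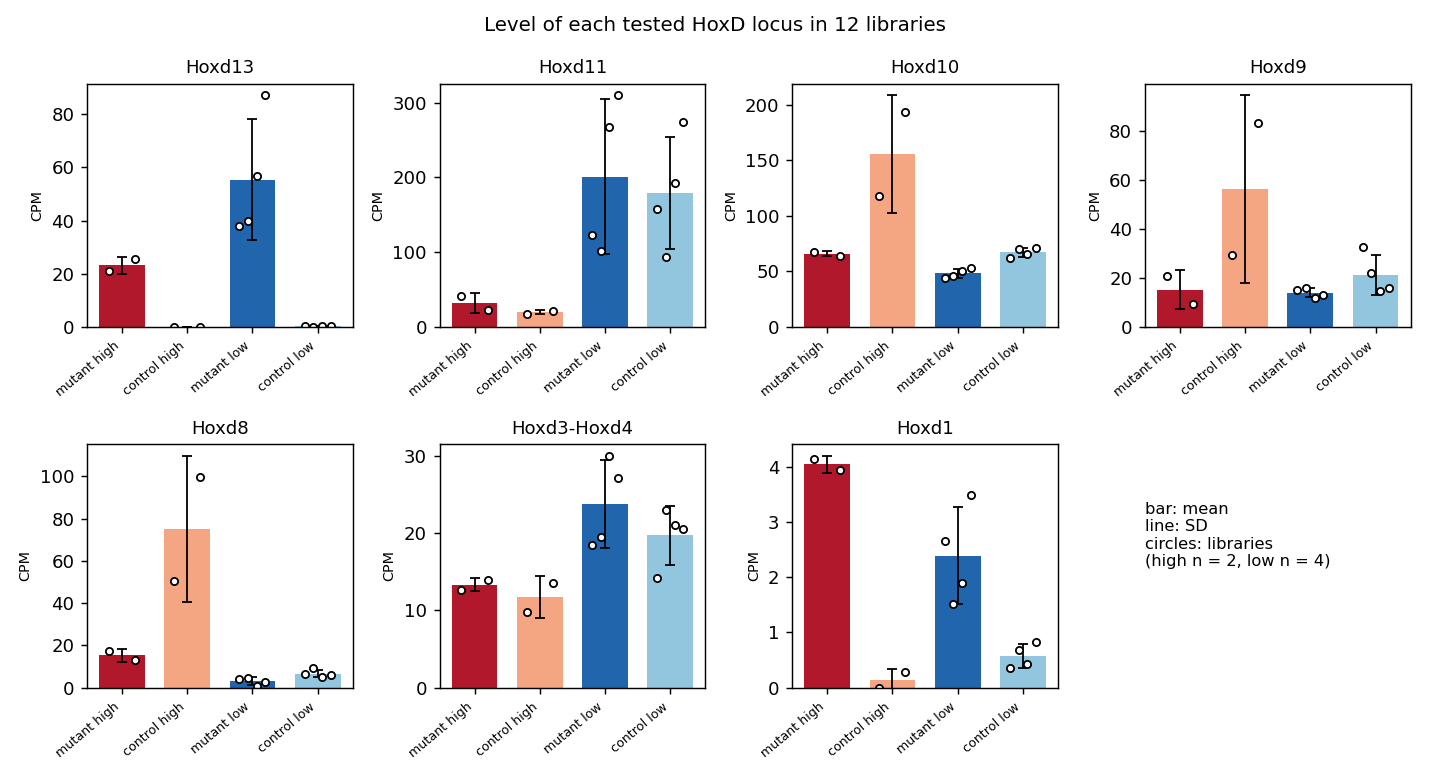
CPM of each tested HoxD locus in mutant high, control high, mutant low and control low cells, with circles for libraries, bars for means and lines for SD (n = 2, 2, 4 and 4). Hoxd13 and Hoxd1 stand higher in both mutant groups, and Hoxd10, Hoxd9 and Hoxd8 are highest in control high cells, where Hoxd8 averaged 75.0 ± 34.6 CPM.

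A test of the interaction asked whether high and low cells differed in the mutant effect. None of the 7 loci was called in edgeR's quasi-likelihood test, against 10.3% of all loci tested (7.29% with a positive and 3.05% with a negative difference), and none in DESeq2 or limma-voom. At an unadjusted p under 0.05 there were 2, Hoxd1 with a difference of log2 fold changes of 2.86 (SE 1.14, adjusted p = 0.129 in edgeR) and Hoxd10 with -0.75 (SE 0.32, adjusted p = 0.152 in edgeR). The effects at Hoxd9 and Hoxd8 differed by -1.26 (SE 0.61) and -1.18 (SE 0.70), without passing the test (edgeR adjusted p = 0.209 and 0.320). Single libraries moved these differences widely. That of Hoxd1 was 1.74 when control high replicate 1 was left out and 6.11 when replicate 2 was, and leaving out 1 library gave -1.95 (mutant high replicate 1) to -0.36 (control high replicate 2) at Hoxd9. A locus called in high cells and not in low cells is therefore not shown to differ between them.

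The next comparison asked how the 2 populations differ within a genotype. In control kidneys the middle genes Hoxd10, Hoxd9 and Hoxd8 were higher in high cells and Hoxd11 was lower. Here 3 HoxD loci were called higher and 1 lower, where 25.3% and 27.0% of all loci tested were called. Ranges without overlap were found at Hoxd10 and Hoxd8 (higher) and at Hoxd11, Hoxd3-Hoxd4 and Hoxd1 (lower), where 30.7% and 35.4% of all loci tested had them. Hoxd8 had the largest fold change of the 3 higher loci, at 75.0 ± 34.6 CPM in control high (SD, n = 2) and 6.62 ± 1.86 CPM in control low cells (SD, n = 4), a log2 fold change of 3.50 (SE 0.47, adjusted p = 2.85e-05 in edgeR). Hoxd10 averaged 155 ± 52.9 CPM in control high cells, against 67.3 ± 4.03 CPM in control low cells (log2 fold change 1.20 with SE 0.22, adjusted p = 0.000323 in edgeR). Hoxd9 averaged 56.3 ± 38.2 CPM in control high cells, against 21.3 ± 8.09 CPM in control low cells (log2 fold change 1.40 with SE 0.41, adjusted p = 0.0104 in edgeR), and without control high replicate 2 its log2 fold change was 0.51 (edgeR adjusted p = 0.434). Hoxd11 averaged 19.6 ± 2.73 CPM in control high cells, against 179 ± 75.1 CPM in control low cells, a log2 fold change of -3.20 (SE 0.58, adjusted p = 0.000453 in edgeR). All its 4 low libraries lay above both high libraries. Hoxd3-Hoxd4 was at 11.7 ± 2.71 CPM in control high cells, against 19.7 ± 3.82 CPM in control low cells (log2 fold change -0.76 with SE 0.31, adjusted p = 0.0530 in edgeR). Hoxd13 and Hoxd1 were near or at 0 in both control groups, and no fold is given for Hoxd13. Hoxd1 held 1 fragment in control high and 22 in control low cells and did not pass the test (log2 fold change -2.12 with SE 1.06, adjusted p = 0.107 in edgeR).

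In mutant kidneys Hoxd11 was again lower in high cells and Hoxd8 higher, and Hoxd13 was also lower. Here 1 locus was called higher and 3 lower, where 19.0% and 13.2% of all loci tested were called. Ranges without overlap were found at Hoxd10, Hoxd8 and Hoxd1 (higher) and at Hoxd13, Hoxd11 and Hoxd3-Hoxd4 (lower), where 26.7% and 23.3% of all loci tested had them. Hoxd11 averaged 31.7 ± 13.4 CPM in mutant high cells, against 201 ± 104 CPM in mutant low cells (log2 fold change -2.66 with SE 0.55, adjusted p = 0.00246 in edgeR), and a fit of only the 8 libraries with a shared number gave -1.83 (edgeR adjusted p = 0.00671). Hoxd8 averaged 15.2 ± 3.07 CPM in mutant high cells, against 3.08 ± 1.81 CPM in mutant low cells (log2 fold change 2.32 with SE 0.49, adjusted p = 0.00227 in edgeR), a call lost with each transcript as a feature (1.63, edgeR adjusted p = 0.457). That value is for the row which the estimated split left with 0.203 fragments in mutant high replicate 2, so it says little of the locus. Hoxd13 averaged 23.2 ± 3.19 CPM in mutant high cells, against 55.4 ± 22.8 CPM in mutant low cells, a log2 fold change of -1.26 (SE 0.42, adjusted p = 0.0337 in edgeR). Hoxd3-Hoxd4 averaged 13.3 ± 0.884 CPM in mutant high cells, against 23.8 ± 5.68 CPM in mutant low cells (log2 fold change -0.84 with SE 0.30, adjusted p = 0.0439 in edgeR). The calls at Hoxd13 and Hoxd3-Hoxd4 were marginal. Both were lost when mutant low replicate 3 or 4 or mutant high replicate 1 or 2 was left out, with edgeR adjusted p of 0.0508 to 0.187 at Hoxd13 and 0.0826 to 0.180 at Hoxd3-Hoxd4. The Hoxd3-Hoxd4 call was also lost without control low replicate 2 or 4 (edgeR adjusted p = 0.0519 and 0.0553). Both calls were lost in the fit of only the 8 libraries with a shared number. That fit gave -0.75 at Hoxd13 and -0.52 at Hoxd3-Hoxd4 (edgeR adjusted p = 0.212 and 0.235). Hoxd10, at 65.9 ± 2.48 CPM in mutant high cells, against 48.2 ± 4.05 CPM in mutant low cells, gave a log2 fold change of 0.45 (SE 0.22, adjusted p = 0.135 in edgeR), and Hoxd9 one of 0.14 (SE 0.43, adjusted p = 0.837 in edgeR). Hoxd1, at 4.05 ± 0.153 CPM in mutant high cells, against 2.39 ± 0.873 CPM in mutant low cells, gave one of 0.73 (SE 0.45, adjusted p = 0.231 in edgeR). The comparisons of mutant with control and of high with low cells share groups, so their values are given side by side and not as separate support.

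**Figure D3:**
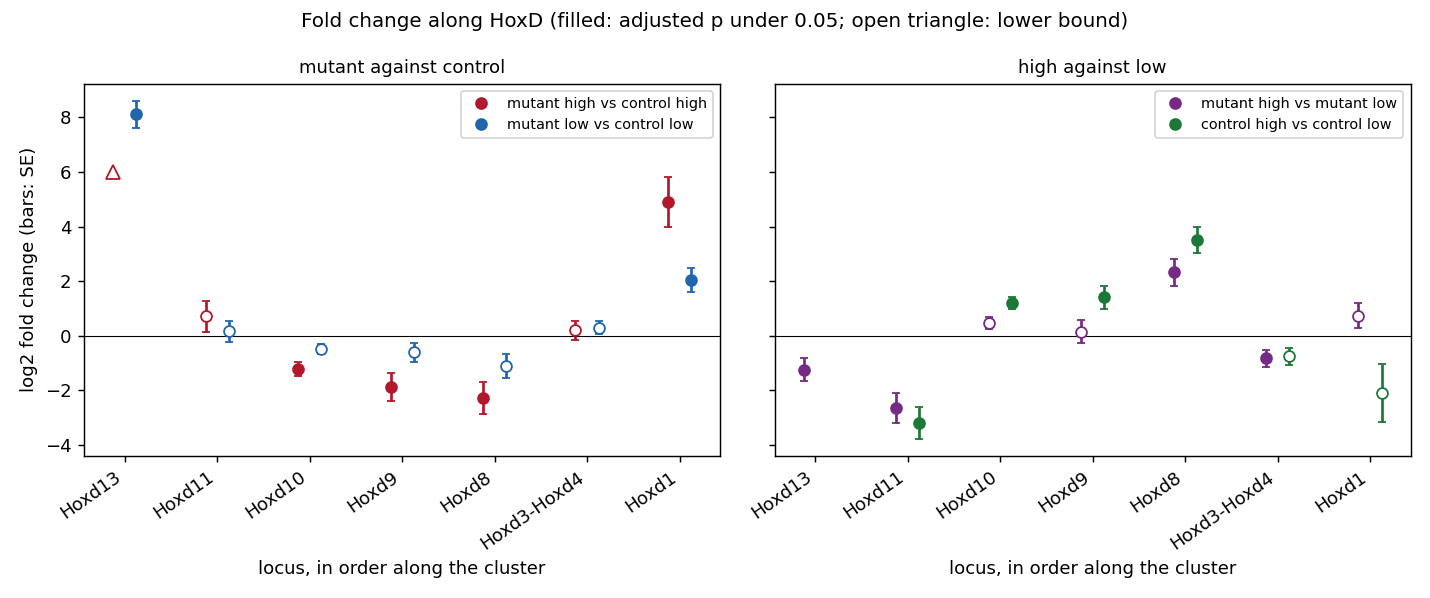
Log2 fold changes (bars, SE from edgeR) of the 7 tested HoxD loci in order along the cluster, mutant against control on the left and high against low on the right, filled where the adjusted p was under 0.05. The open triangle is the lower bound of 63.8-fold for Hoxd13 in high cells, and Hoxd13 in control cells is not drawn on the right. Hoxd13 and Hoxd1 lie above 0 and Hoxd10, Hoxd9 and Hoxd8 below it on the left.

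Levels along the cluster were compared between genes per kb of the exonic length of the closest reference transcript, which may differ from the counted one. In mutant high cells Hoxd10 led with 36.3 ± 1.37 CPM per kb, followed by Hoxd11 with 28.5 ± 12, Hoxd13 with 9.35 ± 1.28, Hoxd8 with 8.66 ± 1.75, Hoxd9 with 7.10 ± 3.77, Hoxd3-Hoxd4 with 4.48 ± 0.298 and Hoxd1 with 2.17 ± 0.0821 (SD, n = 2). In this order Hoxd10 and Hoxd11 overlapped within their SD, as did each neighbouring pair from Hoxd13 to Hoxd3-Hoxd4. In control high cells the order was Hoxd10 with 85.4 ± 29.1, Hoxd8 with 42.7 ± 19.7, Hoxd9 with 26.4 ± 17.9, Hoxd11 with 17.7 ± 2.46 and Hoxd3-Hoxd4 with 3.94 ± 0.913 CPM per kb, with each neighbouring pair from Hoxd10 to Hoxd11 overlapping within their SD. In mutant low cells Hoxd11 led with 181 ± 93.4 CPM per kb, followed by Hoxd10 with 26.5 ± 2.23, Hoxd13 with 22.3 ± 9.19, Hoxd3-Hoxd4 with 8.02 ± 1.91, Hoxd9 with 6.49 ± 0.854, Hoxd8 with 1.75 ± 1.03 and Hoxd1 with 1.28 ± 0.469 (SD, n = 4). Hoxd10 and Hoxd13, Hoxd3-Hoxd4 and Hoxd9, and Hoxd8 and Hoxd1 overlapped within their SD. In control low cells Hoxd11 led with 162 ± 67.6, followed by Hoxd10 with 37.1 ± 2.22, Hoxd9 with 9.97 ± 3.79, Hoxd3-Hoxd4 with 6.63 ± 1.29, Hoxd8 with 3.77 ± 1.06, Hoxd1 with 0.307 ± 0.117 and Hoxd13 with 0.0718 ± 0.0736 CPM per kb, where only Hoxd9 and Hoxd3-Hoxd4 overlapped within their SD. Per kb, Hoxd13 was the third in order in both mutant groups and last of the 7 in control low cells. In control high cells Hoxd13 held 0 fragments and Hoxd1 held 1, both under the floor, so their order was not measured.

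The summed level of the cluster hid these differences. It was 185 and 152 CPM in mutant high cells, against 225 and 412 CPM in control high cells. It was 245, 229, 420 and 497 CPM in mutant low cells, against 274, 220, 299 and 389 CPM in control low cells, so the low groups overlapped. Hoxd13 made up 11.3% and 16.7% of the cluster's fragments in mutant high cells and 13.5% to 17.6% in mutant low cells, against 0% in control high and at most 0.145% in control low cells. Hoxd11 made up 22.2% and 14.6% in mutant high, 7.84% and 5.23% in control high, 44.5% to 64.0% in mutant low and 42.8% to 70.6% in control low cells.

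Outside the cluster, 10 loci lay within 1 Mb on either side and 7 were tested, among them Mtx2, a mitochondrial import gene, Chn1, which encodes a chimaerin, and the transcription factor gene Atf2. Between mutant low and control low cells none was called in edgeR's quasi-likelihood test (8.03% of all loci tested were called in either direction), with 2 at an unadjusted p under 0.05, 1 in DESeq2 and none in limma-voom. Between mutant high and control high cells 1 was called higher and 2 lower (27.5% of all loci tested). Chn1 was at 38.7 and 48.9 CPM in mutant high and at 18.1 and 16.7 CPM in control high cells, a log2 fold change of 1.33 (SE 0.38, adjusted p = 0.0191 in edgeR). Mtx2, the matched neighbour beyond the Hoxd1 end, was at 5.70 and 6.77 CPM in mutant high and at 8.94 and 18.4 CPM in control high cells, with a log2 fold change of -1.12 (SE 0.72, adjusted p = 0.266 in edgeR). In low cells Mtx2 was at 3.81, 6.40, 1.11 and 3.25 CPM in mutant and 8.30, 6.52, 2.05 and 2.38 CPM in control samples (log2 fold change -0.41 with SE 0.52, adjusted p = 0.712 in edgeR). The tested locus nearest to the Evx2 end (74352893 to 74417005, not matched to a gene) was at 30.9 and 35.6 CPM in mutant high and 21.4 and 21 CPM in control high cells (log2 fold change 0.65 with SE 0.29, adjusted p = 0.109 in edgeR), and its log2 fold change in low cells was 0.60 (SE 0.20, adjusted p = 0.0844 in edgeR). For high against low cells, 3 were called higher and 2 lower in control kidneys (52.3% of all loci tested) and 1 higher and 2 lower in mutant kidneys (32.2%), and for the interaction none was called, with 1 at an unadjusted p under 0.05, 1 in DESeq2 and none in limma-voom.

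Among loci outside the cluster with a mean of at least 1 CPM, the 5 whose log2 CPM was most like that of Hoxd13 over the 12 libraries had Pearson's r of 0.984 to 0.993, given as a description because the libraries share their groups and depth. The first lies on chromosome 2 from 105509052 to 105537226 and was not matched to a gene. It averaged 7.58 ± 0.0668 CPM in mutant high cells, against 0 CPM in control high cells (n = 2 each), and 14.0 ± 5.43 CPM in mutant low and 0.204 ± 0.183 CPM in control low cells (n = 4 each). The second, on chromosome 9 from 55388955 to 55393985 and likewise not matched, averaged 2.48 ± 0.499 CPM in mutant high, 0 CPM in control high, 4.33 ± 1.09 CPM in mutant low and 0.110 ± 0.153 CPM in control low cells. The third (r = 0.991) was Hoxc13, the gene at the same posterior position of another Hox cluster, on chromosome 15 from 102751561 to 102759245. It averaged 19.1 ± 5.24 CPM in mutant high, 0 CPM in control high, 27.9 ± 4.72 CPM in mutant low and 0.169 ± 0.256 CPM in control low cells. The others were Dpysl5 (r = 0.985), at 24.9 ± 7.17 CPM in mutant high, 2.10 ± 0.562 CPM in control high, 32.8 ± 5.01 CPM in mutant low and 3.37 ± 0.567 CPM in control low cells, and Irf5 (r = 0.984), at 32.6 ± 0.272, 5.93 ± 0.439, 37.4 ± 6.00 and 9.33 ± 0.926 CPM in the same order of groups.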

How the data were processed

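The deposited table holds expected counts, that is estimated fragments per UCSC transcript, not normalized. Its own title calls them raw fragments of CuffDiff2, and mm9, Bowtie2, HTSeq and DESeq2 are listed without roles in the submitters' processing notes. For settings, strand use and fragments with several alignments, the sources used here state nothing. Without strand, reads of overlapping antisense genes cannot be told apart. Transcripts overlapping on 1 strand were summed and rounded to whole counts, and 99.4% to 99.9% of non-zero locus sums were whole within 0.01. Another 303 rows without a position were empty. Start positions are printed as deposited.

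The table gives no gene names. A row was named where chromosome, strand and span (within 1 base) equal those of a GRCm38 transcript (GENCODE M21 or RefSeq) and the same shift fits at least 3 other genes within 1 Mb, which named 19140 rows, 9 of them in the cluster. The other 8 HoxD rows, among them Hoxd12, Hoxd11, Hoxd10 and Hoxd8, were named by strand and distance from the Hoxd13 transcript, and no coordinates were converted for printing. The members, lists and tests were chosen with earlier results of these data known.

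The test was edgeR 4.0.16's quasi-likelihood F test (R 4.3.3; TMM, filterByExpr, robust, no covariate, two-sided) on all 12 samples in 1 fit of 4 groups, with Benjamini-Hochberg adjustment over 13749 loci and a threshold of 0.05. The fit was tested on simulated data with a common mean per locus before changes were added. That simulation does not cover loci absent from a whole group, such as Hoxd13 in control high cells. SE is the log2 fold change over the square root of F. Ratios of fragments are scaled to library size with TMM factors. Counting intervals are exact binomial (95%), and these and the floors cover counting error only. All HoxD loci are reported, and the loci most like Hoxd13 are the 5 with the highest correlation of log2 CPM (prior count 2). Alternatives were DESeq2 1.42.0, limma-voom (limma 3.58.1), RLE scaling, other filters, features and fold threshold, replicate blocks, fits of only the groups compared and leaving out each sample.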

Additional observations from a re-analysis of the deposited data

How the results depend on the processing

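The calls of Hoxd13 and Hoxd1 as higher in mutant high cells, of Hoxd13 as higher in mutant low cells and of Hoxd11 as lower in high cells of both genotypes were made in every alternative run. The size at Hoxd11 was smaller under the blocks: -2.66 in mutant cells became -1.99 with the title block and -1.88 with the description block, and -3.20 in control cells became -2.51 with the title block. Leaving out 1 library gave 2 to 5 called HoxD loci for mutant high against control high cells, 2 to 4 for mutant high against mutant low, 3 to 5 for control high against control low, 2 to 2 for mutant low against control low and 0 to 0 for the interaction. For mutant high against mutant low cells, 4 loci became 2 under the title replicate block, the description-number replicate block on 8 libraries, the same 8 libraries without a block and the fold threshold, and 1 with each transcript as a feature. For mutant high against control high cells, 5 became 3 with transcripts as features and 2 with the fold threshold. For mutant low against control low cells, 2 became 1 with transcripts as features, with the fold threshold, with the 8 libraries and with description numbers up to 7, and for control high against control low 4 became 2 with the fold threshold. With transcripts as features, the loss at Hoxd8 rests on the estimated split between its rows. For the other changes the cause was not tested. The 8-library fit without a block and the fits by description number were chosen after seeing the data.

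Reversed log2 fold changes were all at loci not called. Under the title block, Hoxd9 in mutant high against mutant low was -0.16. With the description block on 8 libraries, Hoxd9 there was -0.11 and the Hoxd3-Hoxd4 interaction 0.41, and without the block -0.01 and 0.40, where Hoxd11 and Hoxd3-Hoxd4 in mutant low against control low were -0.35 and -0.21. Hoxd11 was -0.13 with description numbers up to 7, and the Hoxd13 interaction was -0.54 in limma-voom. Leaving out 1 library gave -0.13 to 0.44 for Hoxd11 in mutant low against control low, -0.31 to 0.12 for Hoxd3-Hoxd4 in difference of mutant effects and -0.57 to 0.58 for Hoxd9 in mutant high against mutant low. Same-numbered samples did not deviate together throughout (r of 0.07 to 0.47 for title numbers in low cells, and 2 of 8 low libraries correlated best with their own number; -0.08 to 0.22 for description numbers), so no pairing was assumed. With the description block the Hoxd9 call between control high and control low was lost (1.46, edgeR adjusted p = 0.0872), while the same 8 libraries without it gave 1.61 (edgeR adjusted p = 0.0287). The Hoxd8 call in mutant low cells appeared only under the title block (log2 fold change -1.24, edgeR adjusted p = 0.0362).

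Neighbouring loci called within 0.5 Mb and 2 Mb in place of 1 Mb were 0 and 8 for mutant high against control high, 1 and 13 for control high against control low, 0 and 6 for mutant high against mutant low, and 1 within 2 Mb for the interaction, because the windows hold other numbers of tested loci, 2 and 24. Leaving out 1 library gave 0 to 3 called neighbours for mutant high against control high (0 on leaving out control high replicate 2, and 1 on leaving out control high replicate 1 or mutant high replicate 2) and 1 to 3 for mutant high against mutant low. With 2 high libraries a group, and control high totals the lowest as a group, low genes such as Hoxd1 rest on few fragments. Settings left the summed HoxD level within its spread.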
